A study of Mus musculus with 12 samples.

Results

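The protein components of the cytosolic ribosome were followed in heart RNA from mice infused with angiotensin II (Ang II), the peptide hormone of the renin-angiotensin system that raises blood pressure and drives cardiac growth and fibrosis. The genes were those whose mouse symbol is Rpl or Rps followed by a number, with x, y, a or l suffixes, together with Rplp0, Rplp1, Rplp2 and Rpsa. Pseudogenes with a -ps symbol and the Rps6k kinases were left out. This gave 89 of the 47729 genes counted, of which 53 belong to the large and 36 to the small subunit. The annotation lists 84 of them as protein coding and 5 as pseudogenes without a -ps symbol (Rps4l, Rps12l1, Rpl6l, Rps3a2 and Rps3a3). In all, 84 members passed the filter on low counts and were tested. The other 5 (Rps12l1, Rpl6l, Rps3a2, Rpl10l and Rpl39l) were not, and Rpl10l and Rps12l1 had 0 counts in every library.

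All mice were male C57BL/6 of 8 weeks with a subcutaneous osmotic pump for 28 days, and RNA came from the heart. The cardiomyocyte markers (6 of 6 counted, none at 0) summed to 40900 to 54400 CPM in every library. The Ang II group received Ang II with vehicle during the last 2 weeks. The Ang II + EHP-101 group received Ang II and, in those weeks, oral EHP-101 at 20 mg/kg, a cannabidiol derivative that acts on PPARγ and the CB2 receptor. The Ang II + Losartan group received Ang II and losartan, a blocker of the Ang II receptor AT1, at 0.6 g/L in the drinking water. The Control group received saline. Each group had 3 libraries. Whether these came from separate animals is not stated in the labels, and the p-values cover the spread among these libraries, which can be technical.

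A ribosome holds a single copy of most of its proteins, and the cell makes the parts in matched amounts. Ribosomal protein mRNAs are short, abundant and stable, and most begin with an uninterrupted stretch of pyrimidines, the 5′ terminal oligopyrimidine (TOP) motif, through which the mTOR pathway controls their translation. In heart muscle the demand for ribosomes rises when cardiomyocytes grow. A few proteins have paralogs with a narrower expression. Rpl3l, made in heart and skeletal muscle, takes the place of Rpl3 near the peptidyl transferase centre, while Rpl10l and Rpl39l are known from the testis.

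The start regions below are shown because they carry the TOP feature that the family is known for, with Rpl3l, Rpl36al and Rpl7l1 as examples of the members that have only short runs. Each line gives 30 bases around a RefSeq transcription start (10 before and 20 after, GRCm38.p6, transcribed strand), with the longest run of C or T in that window in capitals. For Rpl3l the upstream of its RefSeq starts is shown.
Rps6, chr4:86857348-86857377, minus strand: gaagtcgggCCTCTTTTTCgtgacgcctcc
Rps27, chr3:90213629-90213658, minus strand: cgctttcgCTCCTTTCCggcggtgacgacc
Rplp2, chr7:141447641-141447670, plus strand: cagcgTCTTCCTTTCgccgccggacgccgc
Rpl28, chr7:4792955-4792984, plus strand: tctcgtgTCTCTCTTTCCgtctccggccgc
Rpl22l1, chr3:28805498-28805527, plus strand: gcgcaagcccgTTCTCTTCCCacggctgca
Rpl3l, chr17:24727816-24727845, plus strand: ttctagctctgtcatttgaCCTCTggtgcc
Rpl36al, chr12:69184048-69184077, minus strand: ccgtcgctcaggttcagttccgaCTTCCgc
Rpl7l1, chr17:46782637-46782666, minus strand: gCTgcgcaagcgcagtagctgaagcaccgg

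Rps6, Rps27, Rplp2, Rpl28 and Rpl22l1 have runs of 9 to 11 pyrimidines at or near the start, while Rpl3l and Rpl36al have at most 5 in the window and Rpl7l1 has 2. Over the 64 members with a RefSeq promoter, 34 (53.1%) had a run of at least 7 C or T from 10 bases before the start onwards, against 6511 of 26961 other genes (24.1%). CTTTCC on the transcribed strand of that window, which overlaps such runs, stood in 15.6% of these members and 1.85% of other genes. CCGGAAG, the core letters bound by ETS factors such as GABP, stood on either strand of the 250 bases before to 50 after the start in 40.6% of members and 9.85% of other genes. AAGATGGCG, which YY1 binds, stood in 6.25% of members and 1.63% of other genes there. The other letters searched were rarer in members, with CANNTG, the E-box, in 50% of members and 75% of other genes in the same window. TATAAA, the TATA box, stood on the transcribed strand of the 50 bases before the start in 1.56% of members and 3.15% of other genes. Annotated starts can lie some bases from the start in use, so a run outside the window is not counted, and a match is a description of the letters.

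Total counts per library were 22155418 to 24040516. Control replicate 2 stood apart from the other 11 libraries. It held 1.271% of its counts on the members (95% Clopper-Pearson interval 1.266 to 1.275%, counting error only), against 0.6915 to 0.891% in the other libraries, and it was the highest library for 82 of the 84 tested members. The mean log2 deviation of the members from each gene's own mean was 0.86 in Control replicate 2, and between -0.28 and 0.09 in the other 11, in log2 CPM, where CPM is the count scaled to a TMM-adjusted library of fixed size. With library size alone, which leaves out the TMM factor of 0.839, it was 0.61. All 84 members lay above the mean of the other libraries there, from 0.23 for Rps3a3 to 1.72 for Rpl23a, with a median of 0.96.

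**Figure D1:**
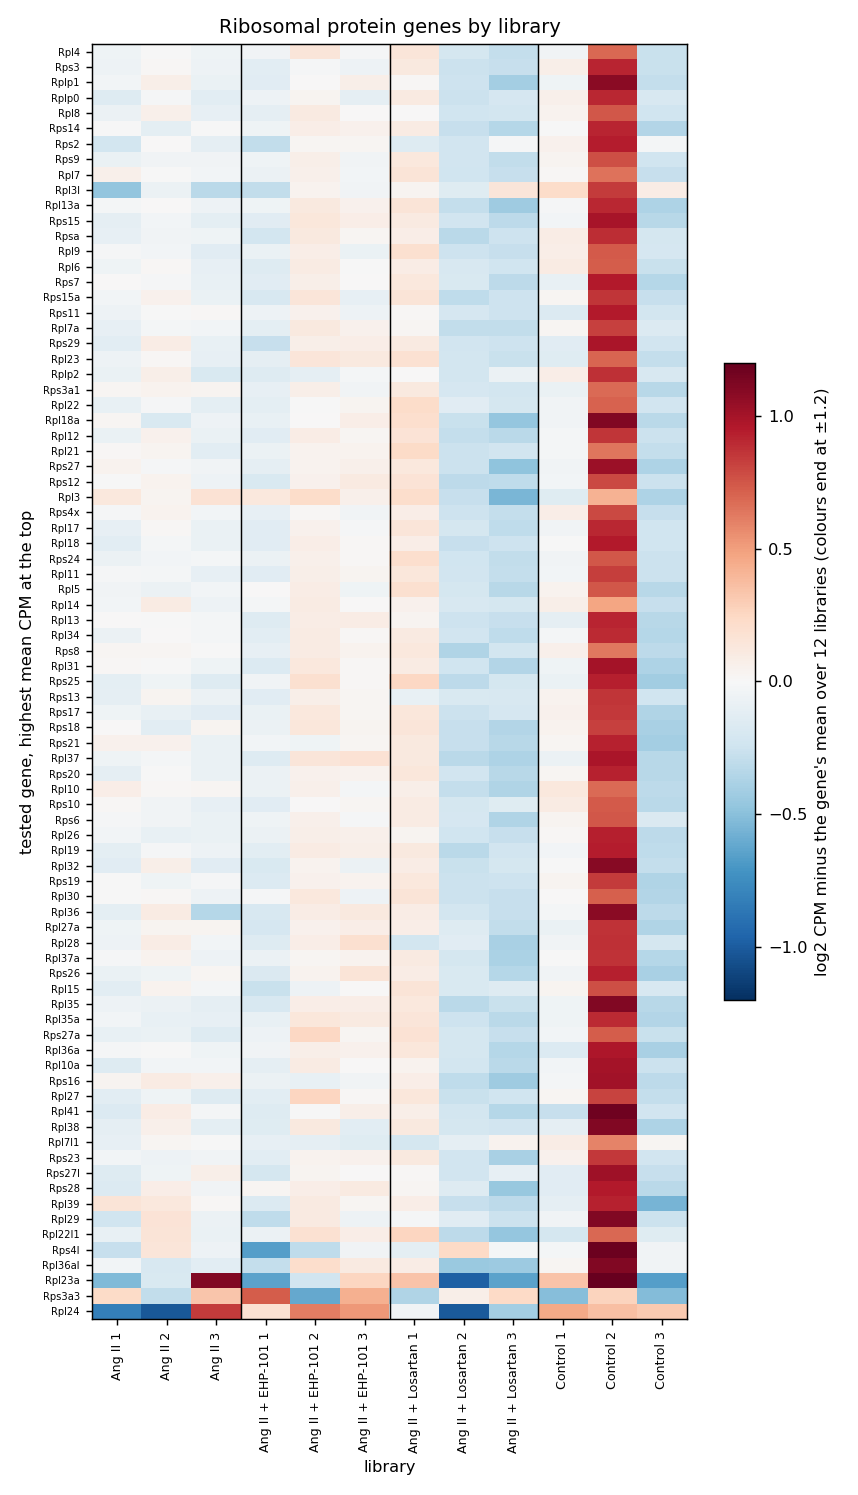
Log2 CPM of tested ribosomal protein genes (rows, highest mean CPM at the top) in each of the 12 libraries (columns, by group and replicate), minus the gene's mean over all libraries. Control replicate 2 is the highest library for nearly every gene, and Ang II + Losartan replicates 2 and 3 and Control replicate 3 are below the mean for most.

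The rise in Control replicate 2 was shared with other short nuclear transcripts. Mitochondrial ribosomal proteins stood 0.82 above their mean there and the nuclear subunits of oxidative phosphorylation (OXPHOS) 0.93, whereas translation factors stood 0.37 and ribosome biogenesis genes 0.17 above theirs. Among the other genes, the median deviation of Control replicate 2 from the mean of the other libraries was 0.52 for transcripts under 600 bases, 0.63 at 600 to 1000, 0.37 at 1000 to 2000, 0.02 at 2000 to 4000 and -0.42 above 4000. In the remaining libraries those medians lay between -0.11 and 0.09. The members stood higher than genes of their length, with medians of 1.02, 0.92 and 0.94 in the 3 shortest classes. In the same library the smooth muscle markers (3 of 3 counted) summed to 43.4 CPM, against 102 to 324 elsewhere, the adipocyte markers (4 of 4) to 0.753 CPM against 1.73 to 52.4, and the fibroblast markers (5 of 5) to 939 CPM against 1010 to 2230. The skeletal muscle markers (4 of 4) summed to 4750 CPM against 1180 to 3200, through Acta1 and Ckm, which the heart also expresses, while Myh2 had 0 counts and Myh4 had 1. The part of transcript length or of these other cell types in the members' level was not tested. In bulk tissue, fewer cells of a type and less RNA per cell cannot be told apart. In each comparison with Control, edgeR's log2 fold changes are therefore given with and without this library.

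**Figure D2:**
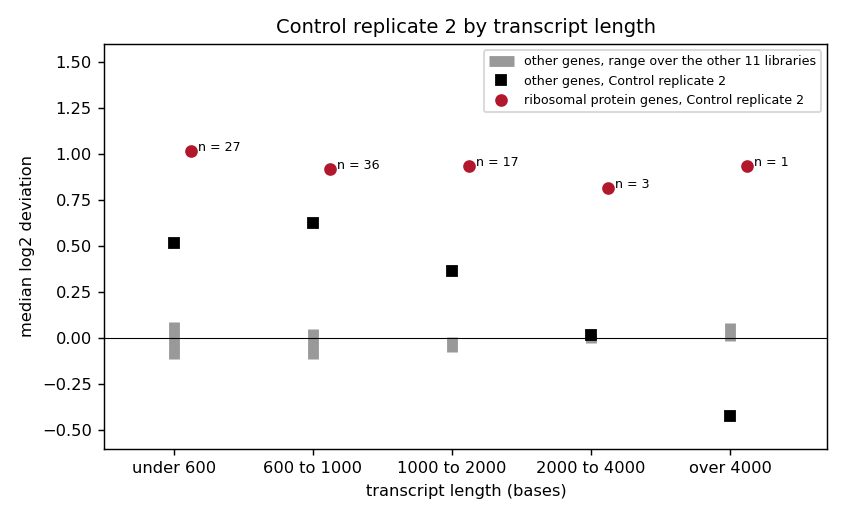
Median log2 deviation of Control replicate 2 from the mean of the other 11 libraries (vertical axis) by transcript length in bases (horizontal axis), for other genes (black squares) and for the ribosomal protein genes (red circles, with their number). The grey bars span the medians of the other 11 libraries for the other genes. Ribosomal protein genes have medians of 0.82 to 1.02, while other genes fall to -0.42 above 4000 bases. The classes at 2000 to 4000 and above 4000 bases hold only 3 and 1 ribosomal protein genes. Lengths are those of a single annotated transcript per gene, which need not be the form expressed, so these classes say little about long ribosomal protein transcripts.

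Per kilobase of transcript, levels differed widely between members. The highest were Rplp1 with 541 CPM per kilobase, a protein of the stalk that recruits elongation factors, Rps14 with 378 and Rps15 with 343, both of the small subunit. The lowest tested were Rps3a3 with 0.469, annotated as a pseudogene, Rpl24 with 0.54 and Rpl23a with 0.703. These lengths are of a single annotated transcript per gene. With all annotated exons as the length, Rplp1, Rps14 and Rps15 came to 541, 94.4 and 272, so the order depends on the length used. Rpl23a and Rpl24 encode core proteins of the large subunit, yet had 107 and 102 counts over all 12 libraries. Their exons overlap another annotated gene over 62.3% (Tlcd1 and Snord42b) and 47% (Gm28037) of their length, and the kit marks no strand, so their counts are uncertain. Rpl35, with 66.2% of its exon length overlapping Arpc5l and Wdr38, had 15178 counts. These shares are over all annotated exons of a gene, and the part of overlap in the counts was not tested. Family members share sequence with many pseudogenes. Of all 50-base stretches of a tested member's transcript, the reads' own length, a median of 48.1% occurred in no other annotated gene, from 1.35% for Rps27 to 100% for Rpl3l. Levels are uncertain to that extent. Members with under 20% of such stretches (15 members) had a median deviation of 0.93 in Control replicate 2 on plain log2 CPM, and those with at least 80% (11 members) 0.94.

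Most members moved together from library to library. The mean over the 84 tested members was taken off in each library. Over the 12 libraries, the residual SD of the 77 protein-coding members without an l suffix had a median of 0.07 on the log2 scale. Among all tested members the widest residual SDs were those of the barely counted Rpl24 (0.506), Rpl23a (0.457) and Rps3a3 (0.445). Rps4l (0.299), Rpl3l (0.245), Rpl3 (0.209), Rpl7l1 (0.202), Rpl36al (0.155) and Rps2 (0.154) followed. The widest ranges over the 12 libraries were 2.33 log2 units for Rpl23a, which has few counts, and 1.83 for Rps4l.

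For Ang II against Control, which asks what the hormone does to the heart, no ribosomal protein gene passed the threshold. At an adjusted p of 0.05 over 15336 genes (edgeR, quasi-likelihood F test, Benjamini-Hochberg), 0 of 84 members were called, and 0.541% of all genes. The smallest adjusted p was 0.136, and 2 members had an unadjusted p under 0.05, against 17.6% of all genes. The fitted log2 fold changes lay below 0 for 82 of 84 members, with a median of -0.32 (all genes -6.8e-04) and quartiles of -0.37 and -0.27. Without Control replicate 2 the same fit called 0 members and 0.096% of all genes, 74 of 84 log2 fold changes lay above 0, and the median was 0.11. The direction for the family thus turned on that library.

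**Figure D3:**
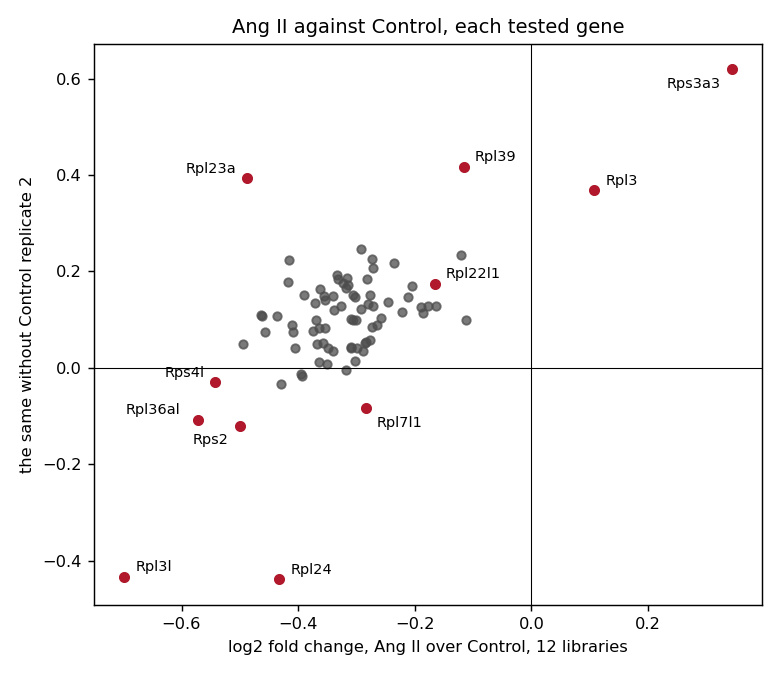
Log2 fold change of Ang II over Control for each of the 84 tested ribosomal protein genes, from all 12 libraries (horizontal axis) and from 11 libraries without Control replicate 2 (vertical axis). Named genes are in red. Nearly all genes are left of 0, and 74 are above 0 on the vertical axis, while Rpl3l is at -0.70 and -0.43.

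The subunits did not part. The large subunit members had a median log2 fold change of -0.31 and the small subunit members -0.32 with all libraries, and 0.11 and 0.13 without Control replicate 2. The members with a pyrimidine run at the start (33 tested) had a median of -0.31, and those with a promoter but no run (29 tested) -0.32. These medians were 0.11 and 0.09 without Control replicate 2.

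The stalk proteins Rplp0, Rplp1 and Rplp2 together recruit and activate the GTPases of translation. Rplp0 had 232, 256 and 236 CPM in Ang II hearts, against 269, 482 and 225 CPM in Control hearts. Its groups overlapped, with Control replicate 2 alone far above the rest, and the log2 fold change was -0.43 (SE 0.23, adjusted p = 0.338). Without that library it was -0.03 (SE 0.13, adjusted p = 0.94). Rplp1 had 255, 273 and 247 CPM in Ang II hearts, against 251, 550 and 214 CPM in Control hearts. Rplp2 averaged 111 ± 9.74 CPM in Ang II hearts and 145 ± 58.8 CPM in Control hearts (SD, n = 3 each). In both, the Ang II values lay within the span of the Control libraries. Rpsa, the small subunit protein also known as the laminin receptor, had 143, 148 and 147 CPM in Ang II hearts, against 163, 282 and 132 CPM in Control hearts, again with overlap.

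Other members with known roles gave the same picture. Rps6, the substrate of S6 kinase, had 74.5, 72.9 and 70.9 CPM in Ang II hearts, against 77.1, 126 and 66.8 CPM in Control hearts. Rpl5 and Rpl11, which with 5S rRNA can bind and inhibit Mdm2, had 88.4, 86.8 and 89 CPM and 90.5, 89.7 and 85.4 CPM in Ang II hearts, against 93.5, 153 and 72.5 CPM and 89.2, 162 and 76.1 CPM in Control hearts. The Ang II libraries of each gene lay close together and inside the Control range. Rps19, mutated in Diamond-Blackfan anaemia in humans, averaged 65.1 ± 1.23 CPM in Ang II hearts and 79 ± 35.1 CPM in Control hearts (SD, n = 3 each). Rps27a, made as a fusion with ubiquitin, averaged 46.5 ± 1.28 CPM in Ang II hearts and 57.7 ± 22 CPM in Control hearts (SD, n = 3 each). The adjusted p-values of these 5 genes in edgeR lay between 0.426 and 0.533. Their log2 fold changes lay between -0.31 and -0.27, and without Control replicate 2 between 0.01 and 0.13.

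The gene with the smallest p was Rpl3l, on chromosome 17 (GRCm38 chr17:24727820-24736143, plus strand), the striated muscle paralog of Rpl3. It had 127, 168 and 141 CPM in Ang II hearts, against 205, 315 and 187 CPM in Control hearts. The groups did not overlap, also when Control replicate 2 is left out. The log2 fold change was -0.70 (SE 0.19), or 0.616 of the Control level, with an unadjusted p of 0.00326 that did not pass over all genes in edgeR (adjusted p = 0.136). Without Control replicate 2 it was -0.43 (SE 0.14, adjusted p = 0.233). DESeq2 called this gene and no other member (log2 fold change -0.71, adjusted p = 0.0254), while it called 3.3% of all genes. limma-voom with sample quality weights, which gave Control replicate 2 a weight of 0.112, also called it alone (log2 fold change -0.53, adjusted p = 0.00808), while it called 17.1% of all genes.

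Rpl3 itself, on chromosome 15 and used in ribosomes of all tissues, did not share the lower level. It had 112, 105 and 116 CPM in Ang II hearts, against 92.8, 137 and 79.5 CPM in Control hearts. The groups overlapped through Control replicate 2, and the log2 fold change was 0.11 (SE 0.21, adjusted p = 0.805). Without that library it was 0.37 (SE 0.17, adjusted p = 0.41) and the groups did not overlap. Only 14.4% of the 50-base stretches of Rpl3 are unique to it, so its counts are less certain than those of Rpl3l.

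The ratio of the pair within a library does not use the library scaling. The log2 ratio of Rpl3l to Rpl3 counts was 0.18, 0.67 and 0.28 in Ang II hearts, against 1.15, 1.2 and 1.23 in Control hearts. Control replicate 2, with 5850 counts on Rpl3l and 2553 on Rpl3, lay between the other Control libraries. The ratio averaged 0.38 ± 0.26 in Ang II hearts and 1.19 ± 0.04 in Control hearts (SD, n = 3 each). The difference was -0.81 (-0.81 also without Control replicate 2), by an exact two-sided permutation test over all 6 libraries with p = 0.1, the smallest that 3 against 3 libraries allow, and the groups did not overlap. Benjamini-Hochberg adjustment over the 36 paralog comparisons gave 0.6. The fibroblast markers summed to 2090, 1580 and 2230 CPM in Ang II hearts, against 1320, 939 and 1170 CPM in Control hearts. The cardiomyocyte markers summed to 41200, 49000 and 40900 CPM, against 47600, 45000 and 53900 CPM. Rpl3l is a muscle paralog and Rpl3 is used in all tissues. In bulk tissue a different mix of cells and a change within cells cannot be told apart in this ratio.

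Under treatment the mean ratio lay between the means of these groups. In Ang II + EHP-101 hearts it was 0.36, 0.59 and 0.68, with a mean of 0.55 ± 0.16 (SD, n = 3). It overlapped the Ang II hearts (difference 0.17, exact permutation p = 0.3) and lay below every Control heart (difference -0.65, p = 0.1). In Ang II + Losartan hearts it was 0.60, 0.90 and 1.47, with a mean of 0.99 ± 0.44 (SD, n = 3). This spread overlapped both the Ang II hearts (difference 0.61, exact permutation p = 0.2) and the Control hearts (difference -0.20, p = 0.5). The ratio varied more among the losartan libraries than within any other group, with Rpl3l at 180, 159 and 195 CPM and Rpl3 at 119, 85 and 70.3 CPM. In the same losartan libraries the fibroblast markers summed to 1630, 1360 and 1010 CPM and the cardiomyocyte markers to 43000, 48200 and 53000 CPM. The part of the cell mix in the ratio was not tested.

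**Figure D4:**
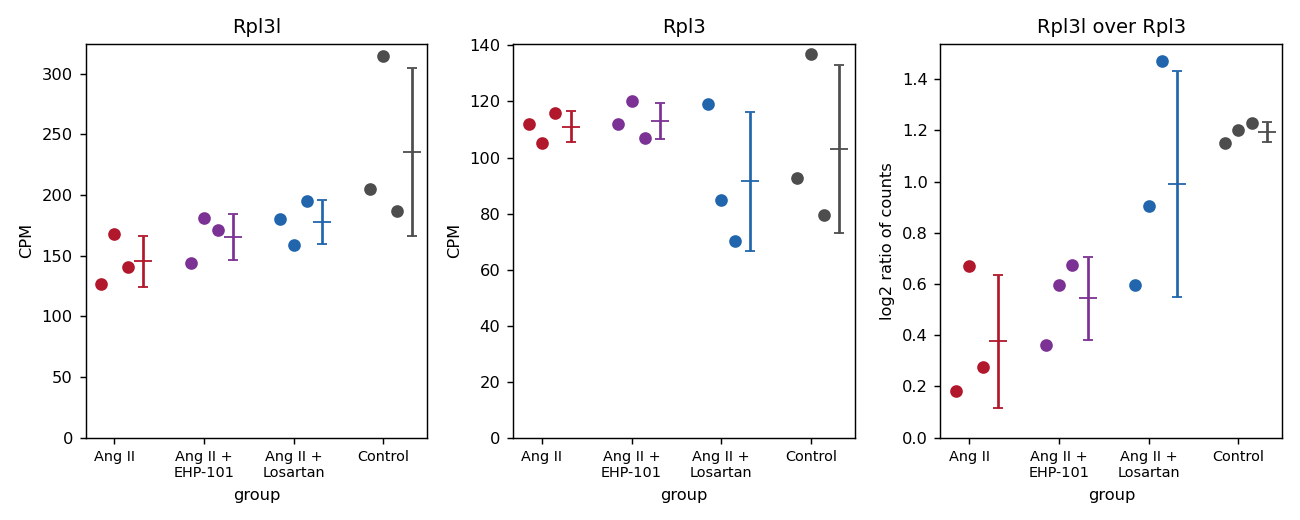
CPM of Rpl3l (left) and Rpl3 (middle) and the log2 ratio of their counts (right) in each library (points) of the 4 groups, with the mean and SD of 3 libraries beside them. The ratio is 1.15 to 1.23 in Control hearts and 0.18 to 0.67 in Ang II hearts.

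Of the other paralog pairs, Rpl36al and Rpl36a also separated, at a small size. Only 53.5% of the 50-base stretches of Rpl36al and 14.5% of those of Rpl36a are unique. Gm49383 overlaps 24.5% of the exon length of Rpl36al, so the counts of this pair are uncertain. The log2 ratio of Rpl36al to Rpl36a was -2.86, -3.03 and -2.91 in Ang II hearts, against -2.65, -2.71 and -2.49 in Control hearts. The difference was -0.32 (exact permutation p = 0.1, adjusted 0.6) on 143 to 174 Rpl36al counts in Ang II and 158 to 271 in Control libraries. The same ratio was lower in all Ang II + Losartan hearts than in Control hearts (difference -0.35, p = 0.1 by the exact permutation test). Rpl22l1 to Rpl22, Rps27l to Rps27, Rpl7l1 to Rpl7 and Rps4l to Rps4x overlapped between Ang II and Control hearts, with differences of 0.11, -0.04, -0.14 and -0.24. Rpl39l had at most 0.592 CPM in any library, against 18.6 to 51.9 CPM for Rpl39, and Rpl10l had no counts, against 59.1 to 122 CPM for Rpl10.

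Groups that do not overlap were no more frequent than elsewhere. With all libraries, Rpl3l and Rpl7l1 lay lower in every Ang II than in every Control library, which is 2 of 84 members, against 10.3% of all genes. Rpl7l1 had 35.5, 38.5 and 37.7 CPM in Ang II hearts, against 40.4, 57.3 and 38.5 CPM in Control hearts, a log2 fold change of -0.28 (SE 0.14, adjusted p = 0.317 in edgeR), and the nearest libraries differed by less than the digits shown. Without Control replicate 2 it was -0.08 (SE 0.09, adjusted p = 0.768). Without Control replicate 2, 14 members lay higher and 2 lower, against 19.3% and 18.3% of all genes. Rpl3, Rpl39, Rpl36a, Rpl22l1, Rps27 and Rps3a3 were among the 14. Rpl39, a small protein of the exit tunnel, had 30.6, 29.9 and 27.7 CPM in Ang II hearts, against 25.4, 51.9 and 18.6 CPM in Control hearts, and its log2 fold change was -0.12, and 0.42 (adjusted p = 0.275) without Control replicate 2. Rps2, near the mRNA entry channel, had 179, 209 and 194 CPM in Ang II hearts, against 217, 401 and 205 CPM in Control hearts (log2 fold change -0.50, SE 0.22, adjusted p = 0.27). Without Control replicate 2 it was -0.12 (SE 0.12, adjusted p = 0.741).

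For Ang II + EHP-101 against Ang II, 0 members were called and 0% of all genes. The median log2 fold change of the members was 0.03, with 61 of 84 above 0, and 0 members had an unadjusted p under 0.05, against 7.22% of all genes. The members with the smallest p were Rpl24, Rpl3l, Rps4l and Rps27a. Rps27a had 48.1, 59.6 and 51 CPM in Ang II + EHP-101 hearts, against 47.1, 47.3 and 45 CPM in Ang II hearts, without overlap (log2 fold change 0.19, SE 0.22, adjusted p = 0.954). Rpl3l had 144, 181 and 171 CPM in Ang II + EHP-101 hearts, against 127, 168 and 141 CPM in Ang II hearts, with overlap (log2 fold change 0.19, SE 0.19, adjusted p = 0.951). In all, 2 members lay higher without overlap and 2 lower, against 7.01% and 9.74% of all genes.

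For Ang II + Losartan against Ang II, 0 members were called and 0% of all genes. The log2 fold changes lay below 0 for 79 of 84 members with a median of -0.09, and 0 had an unadjusted p under 0.05, against 8.41% of all genes. The shift came from 2 libraries, since the mean deviation of the members was 0.09, -0.24 and -0.28 in Ang II + Losartan hearts, against -0.07, -0.01 and -0.04 in Ang II hearts. Rpl28, of the large subunit, was the only member without overlap, with 52.8, 55.8 and 46.9 CPM in Ang II + Losartan hearts, against 59, 65.2 and 59.9 CPM in Ang II hearts (log2 fold change -0.24, SE 0.23, adjusted p = 0.85), where 10.5% of all genes lay lower without overlap. Rpl3l stood 0.29 higher on the log2 scale (SE 0.19, adjusted p = 0.74) and Rpl3 gave -0.28 (SE 0.21, adjusted p = 0.78), neither past the threshold. With sample quality weights in limma-voom, Rpl3 came to -0.44 with an adjusted p of 0.0509. That fit called 598 of 15336 genes and put 82 of 84 members below 0, with a median of -0.17.

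The members' level and the erythroid markers were lowest in the same libraries. The 3 libraries with the lowest member means, Ang II + Losartan replicates 2 and 3 and Control replicate 3, were also the 3 with the lowest sums of the erythroid markers (5 of 5 counted, none at 0), at 272, 264 and 144 CPM. Over the groups these sums were 456 to 608 CPM in Ang II, 401 to 550 in Ang II + EHP-101, 264 to 617 in Ang II + Losartan and 144 to 740 in Control hearts. The highest sum, in Control replicate 2, depends on its TMM factor of 0.839, against 1.11 in Ang II replicate 1. The order was not shared in every library, since Ang II + EHP-101 replicate 2 had 401 CPM with a member mean of 0.07, and Ang II replicate 1 had 599 CPM with -0.07. Hbb-bs, the adult beta globin, had 4063 and 3773 counts in these losartan libraries and 2162 in Control replicate 3, against 5401 to 9776 in the other 9. Its highest count, 9776, was in Ang II replicate 1, with 9010 in Control replicate 2. The erythroid list is 1 of several cell type marker lists described by library, and the match was seen after the fact. The 22 other TOP mRNAs were also lowest in Ang II + Losartan replicates 2 and 3 and Control replicate 3. Their mean deviations there were -0.14, -0.16 and -0.14. The part of blood RNA in the members' level was not tested.

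**Figure D5:**
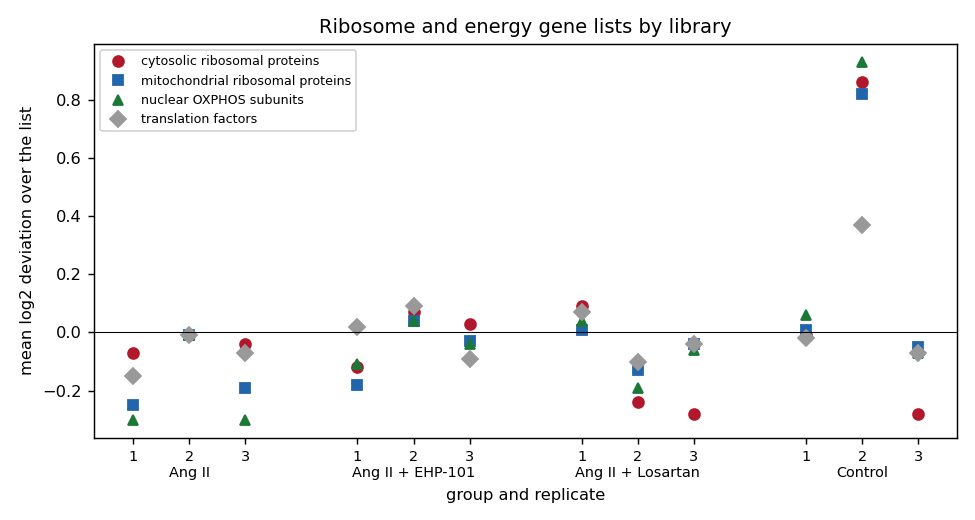
Mean log2 deviation of 4 gene lists (symbols) from each gene's mean over 12 libraries, by group and replicate. All 4 are highest in Control replicate 2. Cytosolic ribosomal proteins are at -0.24 and -0.28 in Ang II + Losartan replicates 2 and 3 and at -0.28 in Control replicate 3, below the other lists there.

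For Ang II + EHP-101 against Control, 0 members were called, against 0.398% of all genes, and without Control replicate 2 again 0 members, against 0.224%. The median log2 fold change was -0.28 with all libraries and 0.15 without that library, and 3 members had an unadjusted p under 0.05, against 16.9% of all genes. Rps4l had the smallest p (log2 fold change -0.80, adjusted p = 0.218), with 7.32, 9.4 and 11.3 CPM in Ang II + EHP-101 hearts, against 11.4, 26.2 and 11.3 CPM in Control hearts, and without Control replicate 2 it was -0.28. Rpl3l followed at -0.51 (SE 0.19, adjusted p = 0.231) and without overlap, and at -0.25 (SE 0.14, adjusted p = 0.459) without Control replicate 2. For Ang II + Losartan against Control, 0 members were called and 0% of all genes, with or without Control replicate 2. The medians were -0.41 and 0.02, and with all libraries 5 members had an unadjusted p under 0.05, against 10.7% of all genes. The 4 smallest p-values were those of Rpl36al, Rpl7l1, Rps2 and Rpl28, each with an adjusted p of 0.456. Their log2 fold changes were -0.70, -0.35, -0.52 and -0.54 with all libraries, and -0.23, -0.14, -0.14 and -0.11 without Control replicate 2. These comparisons share their Control libraries with Ang II against Control, and both treatments share their Ang II libraries.

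For Ang II + EHP-101 against Ang II + Losartan, whose doses were set in different units, 0 members were called and 0% of all genes. The median log2 fold change was 0.13, with 79 of 84 members above 0, and 0 had an unadjusted p under 0.05, against 6.04% of all genes. Rpl24, which is barely counted, had the smallest p (adjusted p = 0.884), followed by Rpl3, with 112, 120 and 107 CPM in Ang II + EHP-101 hearts, against 119, 85 and 70.3 CPM in Ang II + Losartan hearts (log2 fold change 0.30, SE 0.21, adjusted p = 0.919). The groups overlapped through the first losartan library.

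The rest of the translation machinery was described beside the members. Of 22 other TOP mRNAs, 49 translation factors, 59 ribosome biogenesis genes and 77 mitochondrial ribosomal proteins tested, 0 passed edgeR's threshold in either direction in any of the 6 comparisons. For Ang II against Control with all libraries, 3, 10, 6 and 49 of these genes had an unadjusted edgeR p under 0.05. This compares with 2 of the 84 members and 17.6% of all genes. DESeq2 called 1, 1, 0 and 3 of these genes, against 3.3% of all genes. For Ang II against Control their median log2 fold changes were -0.23, -0.20, -0.11 and -0.47 with all libraries, and 0.04, -0.05, -0.02 and -0.15 without Control replicate 2. Of genes that share the TOP class, Rack1, a scaffold on the small subunit, averaged 311 ± 10.6 CPM in Ang II hearts and 398 ± 171 CPM in Control hearts (SD, n = 3 each). Eef1a1, which delivers aminoacyl-tRNA, averaged 470 ± 55 CPM in Ang II hearts and 410 ± 75.3 CPM in Control hearts (SD, n = 3 each). Fau, which encodes the small subunit protein eS30 as a fusion, averaged 45.6 ± 1.99 CPM in Ang II hearts and 55.4 ± 26.1 CPM in Control hearts (SD, n = 3 each). Among regulators of ribosome production, Myc averaged 5.3 ± 0.418 CPM in Ang II hearts and 3.22 ± 0.336 CPM in Control hearts (SD, n = 3 each), a log2 fold change of 0.72 (adjusted p = 0.275 in edgeR). Ncl, the nucleolar protein nucleolin, gave 0.28 on the log2 scale (adjusted p = 0.373), and Npm1, another nucleolar protein, gave 0.15 (adjusted p = 0.616). These 3 log2 fold changes, with Control replicate 2 left out, were 0.80 for Myc, 0.13 for Ncl and 0.22 for Npm1. Those of Rack1, Eef1a1 and Fau were -0.36, 0.20 and -0.28 with all libraries, and 0.05, 0.36 and 0.17 without it.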

How the data were processed

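Heart RNA of 12 samples was measured as raw read counts per gene, in the form the authors deposited. By the labels' protocols, poly(A) RNA (300 ng per sample) was made into libraries with a kit that keeps no strand, and read as single 50 bp ends. The submitters' processing notes name fastp 0.20.0, HISAT2 2.1.0, featureCounts 2.0.0, edgeR 3.30.0 and GRCm38. The handling of reads with several matches is not given in the sources used here, and it bears on these genes.

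Groups came from the sample titles and the group label. Control titles add "(Ang II control)", which was read as the saline group of the design. Symbols, types, lengths and exon overlaps came from GENCODE M21, with 47310 of 47729 genes found. Promoters came from RefSeq (GRCm38.p6), matched by symbol for 64 of 89 members. The 274 rows with a -ps symbol that were left out held 320 to 627 counts per library.

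The fit used edgeR 4.0.16 in R 4.3.3 (filterByExpr, TMM, robust quasi-likelihood, 1 mean per group over all 12 libraries, Benjamini-Hochberg over 15336 genes, threshold 0.05). The SE is the absolute log2 fold change divided by the square root of the F statistic, so it restates the test. Deviations used log2 CPM with a prior count of 2. limma 3.58.1 and DESeq2 1.42.0 were run as alternatives, with RLE factors, library size alone, no filter, a mean of at least 5 CPM, the 2 groups alone, a replicate block and each library left out. The scripts were tested on simulated data.

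The members, lists and tests were chosen with earlier results of these data known. Genes named are the paralog pairs, 9 members with known roles, the 4 smallest p-values per comparison, the 3 highest and 3 lowest per kilobase, and the 2 widest spreads. The untested members are named besides. Some items are not reported here. Rps14 is named without sequence.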

Additional observations from a re-analysis of the deposited data

How the results depend on the processing

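Members called were 0 in all 6 comparisons under RLE factors, library size alone, limma-voom, no filter, a mean of at least 5 CPM, the 2 groups alone and with each library left out. In 4 of these comparisons edgeR called 0 of all 15336 genes, so a count of 0 there does not speak of stability. For Ang II against Control, 1 member (Rpl3l) was called by DESeq2 and 1 by limma-voom with sample quality weights, and both called 0 members in the other 5 comparisons. The difference in ratio was -0.961 to -0.718 with a library left out. The median log2 fold change of members was -0.522 to 0.108 for Ang II against Control with a library left out, and 0.00786 with quality weights. It was -0.493 to 0.151 for Ang II + EHP-101 against Control and -0.636 to 0.0243 for Ang II + Losartan against Control, and each upper value is that without Control replicate 2. Library size alone moved the median of all genes by 0.17 for Ang II against Control.

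Single genes that changed sign did so without passing a threshold. For Ang II against Control with library size alone the log2 fold changes were 0.0381 for Rpl22l1, 0.0299 for Rpl7, 0.0207 for Rpl10 and 0.109 for Rpl39, and limma-voom gave 0.0252 for Rpl39. Quality weights gave 0.139 for Rpl22l1, 0.0798 for Rps27, 0.126 for Rps27l, 0.155 for Rpl36a, 0.0313 for Rpl7, 0.266 for Rpl39, 0.0396 for Rplp1, 0.0229 for Rps19 and 0.00642 for Rpl11. With a library left out, the ranges were -0.38 to 0.114 for Rpl10, -0.49 to 0.099 for Rpl11, -0.445 to 0.053 for Rpl22, -0.329 to 0.174 for Rpl22l1, -0.522 to 0.246 for Rpl36a, -0.377 to 0.417 for Rpl39, -0.473 to 0.0846 for Rpl5, -0.349 to 0.128 for Rpl7, -0.62 to 0.15 for Rplp1, -0.499 to 0.132 for Rps19, -0.575 to 0.193 for Rps27, -0.486 to 0.0406 for Rps27a, -0.577 to 0.164 for Rps27l, -0.46 to 0.0885 for Rps4x, -0.464 to 0.0147 for Rps6 and -0.0348 to 0.368 for Rpl3. Rpl3 also changed sign for Ang II + EHP-101 against Ang II, at -0.134 with library size alone, -0.0121 with quality weights, -0.00507 with a mean of at least 5 CPM and -0.0226 to 0.0563 with a library left out. With a library left out it ran over -0.0227 to 0.388 for Ang II + EHP-101 against Control and -0.411 to 0.091 for Ang II + Losartan against Control. For Ang II against Control, the upper value of each gene's range is that without Control replicate 2. Why that library differs was not tested.

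The labels do not say what a replicate number marks, so the numbers were not taken as pairs. Same-numbered libraries of different groups had correlations of their deviations between -0.327 and 0.33. Differently numbered libraries were not compared, so this range cannot decide whether the numbers mark pairs. With the replicate block, 0 members were called in every comparison, and the median for Ang II against Control was -0.272. The ratio of Rpl3l to Rpl3 differed by -0.815 with the block. Each group holds every replicate number, so a block cannot change that difference and this value does not speak of stability. A group reduced to 2 libraries borrows its spread from the other groups.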
